A study of Homo sapiens with 9 samples.

Results

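The Scramble libraries are the 3 RNA sequencing libraries of cells that received a scrambled control siRNA, and they were taken by their label alone from the 9 libraries of the series. The other 6 came from cells given siRNAs against KDM4C, 3 with Si-KDM4C#1 and 3 with Si-KDM4C#2, and their values were not used. All 9 were labelled Huh7, with human hepatocellular carcinoma cells as the cell type and control as the genotype of the Scramble libraries. The control cells had carried the scrambled siRNA for 48 h when total RNA was taken. No library of the series was labelled as untransfected, so the levels below are those of transfected cells of 1 line, and the labels do not say whether the 3 replicates were separate cultures.

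Huh7 is an established line derived from a human liver tumour. Hepatocytes and tumours that keep their character are known for making plasma proteins such as albumin and the apolipoproteins, and many hepatocellular carcinomas also make AFP, the alpha-fetoprotein of fetal liver. This output is driven by a small network of transcription factors in which HNF4A holds a central place. The account below asks which parts of that program, and of other cell types' programs, were present in the control cells. The data went against the label on its defining markers, as given below, so the cells are called by their Scramble label here and receive no other cell type name.

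Each level is given in FPKM, fragments scaled to exon length and to the depth of the library, which allows levels of different genes to be set side by side. The tables listed 32906 genes. Values were multiplied by the exon lengths of GENCODE release 29 and a fitted depth. Of genes above 0 with such a length, 97.6 to 97.7% in a library then gave whole fragments. Depths of 15097840, 15901200 and 17136965 fragments in replicates 1, 2 and 3 followed from this. The recovered fragments summed to slightly more, 15171665, 15976944 and 17216647. Between 25015 and 25452 genes were above 0 in a library. In all, 13426 genes, or 40.8%, averaged 1 FPKM or more over the 3 libraries. Across these genes the log2(FPKM + 1) values of a pair of libraries had a Pearson correlation of 0.98 to 0.99 across genes, which share libraries and are not replicates. The median coefficient of variation over the 3 libraries was 9.08% for genes between 1 and 10 FPKM, 4.67% between 10 and 100 FPKM and 4.09% from 100 FPKM up. Between libraries of a pair, the variance of recovered fragments was 2.95 to 4.96 times that of counting alone, so no pair agreed within sampling noise. This ratio does not show whether the cultures were separate. Replicate 1 was the highest of the 3 for 42.1% of the 4374 protein-coding genes at 10 FPKM or more, and its fragment share from the mitochondrial genome was the lowest, 8.08% against 9.21% and 9.53%. One group was described, so no test was run. Levels are given as the mean ± SD of the 3 libraries, and limits that rest on fragment numbers cover counting error only.

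The 4 genes fixed as markers of the cells split into a pair at high level and a pair near 0. GAPDH, the glycolytic dehydrogenase that most cells make in quantity, was at 1381, 1429 and 1543 FPKM. VIM, the intermediate filament protein vimentin, was at 48.8, 49.6 and 56.5 FPKM, with 24.4% of its exon bases also covered by another gene. Replicate 3 was the highest library for both. HNF4A, the nuclear receptor that sustains hepatocyte identity, was at 0.109, 0.112 and 0.128 FPKM, which stood for 12, 13 and 16 fragments. AFP was represented by 1 fragment in replicate 1 and by none in replicates 2 and 3. Means were 1451 ± 83.4 FPKM for GAPDH, 51.6 ± 4.23 FPKM for VIM, 0.116 ± 0.0102 FPKM for HNF4A and 0.00677 ± 0.0117 FPKM for AFP, each with n = 3. The floor set by 3 fragments over the 3 libraries lay at 0.0191 FPKM for AFP, above its mean, so AFP mRNA was not detectable at this depth.

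The stretch of 250 bases just before 1 annotated start site of each of these 4 genes is shown. For HNF4A this start lies at the upstream end of the gene, which spans chr20:44355700-44434596. Windows before other start sites of these genes were not examined. The sequences are RefSeq's, on build GRCh38.p14. Capitals mark the dinucleotide CG, the TATA box letters TATAAA and an inverted repeat known from promoters of liver genes, spelled GTTA, any base, T, any 2 bases, TT, any base, AC. Both motifs were searched on both strands. In HNF4A the repeat runs directly into a CG, and the run of capitals there is 1 base longer than the repeat.
GAPDH, chr12:6535014-6535263, + strand: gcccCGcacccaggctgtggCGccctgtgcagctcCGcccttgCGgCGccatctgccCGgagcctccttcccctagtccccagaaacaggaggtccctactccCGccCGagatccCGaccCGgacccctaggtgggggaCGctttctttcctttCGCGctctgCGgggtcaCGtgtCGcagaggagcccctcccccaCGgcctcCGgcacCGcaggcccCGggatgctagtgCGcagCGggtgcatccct
VIM, chr10:17227991-17228240, + strand: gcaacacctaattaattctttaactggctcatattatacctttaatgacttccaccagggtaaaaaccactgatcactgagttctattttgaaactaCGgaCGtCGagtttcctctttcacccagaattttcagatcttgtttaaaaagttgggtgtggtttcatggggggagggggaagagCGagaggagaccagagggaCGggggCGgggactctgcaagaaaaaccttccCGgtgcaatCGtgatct
HNF4A, chr20:44355449-44355698, + strand: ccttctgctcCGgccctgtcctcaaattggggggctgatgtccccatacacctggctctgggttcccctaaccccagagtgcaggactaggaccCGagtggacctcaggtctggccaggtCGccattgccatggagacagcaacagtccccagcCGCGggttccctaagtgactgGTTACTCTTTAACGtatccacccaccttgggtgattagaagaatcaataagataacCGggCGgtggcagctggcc
AFP, chr4:73435971-73436220, + strand: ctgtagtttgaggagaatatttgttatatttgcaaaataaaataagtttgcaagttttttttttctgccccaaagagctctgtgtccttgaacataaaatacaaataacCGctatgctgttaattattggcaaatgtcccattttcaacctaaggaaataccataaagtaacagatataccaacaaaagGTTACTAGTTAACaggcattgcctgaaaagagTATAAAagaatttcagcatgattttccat

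GAPDH held 22 CG dinucleotides in this window, VIM and HNF4A 8 each, and AFP 1. The inverted repeat was found in both genes of the low pair, with its first base 75 bases before this start of HNF4A and 61 bases before that of AFP. TATAAA was found in AFP alone, 29 bases before the start. In these windows, each before 1 start site, CG number and TATAAA therefore did not divide the high pair from the low pair. Windows before other start sites could differ and were not examined. Among all 27195 promoter windows of the table, 0.221% held the inverted repeat and 11.2% held TATAAA. A match is a string of letters and was not tested as a site.

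**Figure D1:**
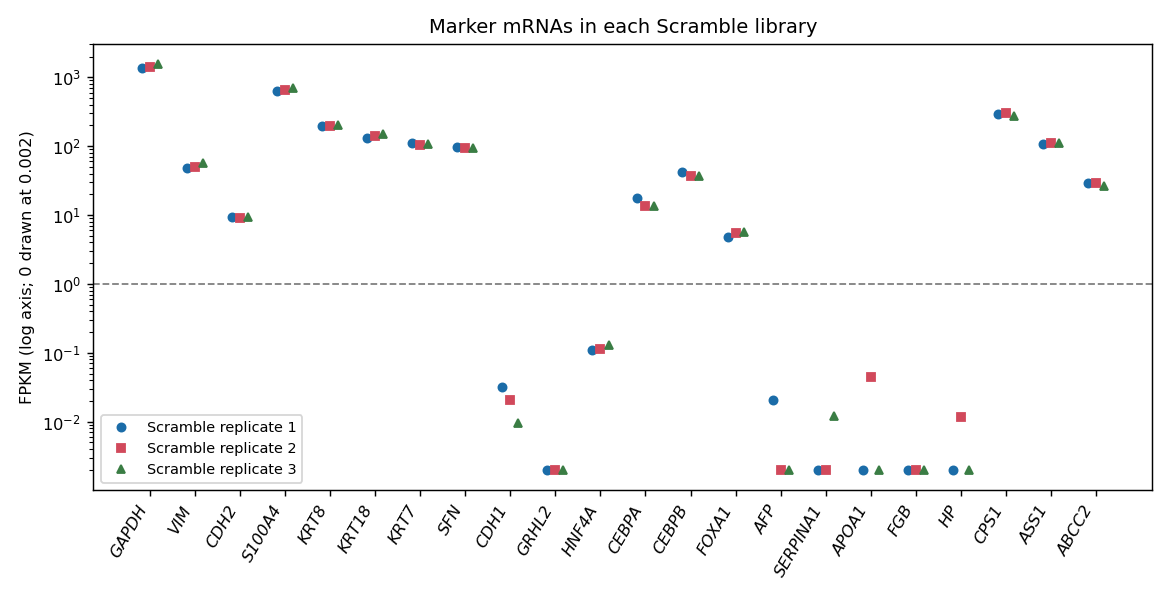
Level of 22 marker mRNAs (x axis) in each Scramble library, in FPKM on a log axis, with 0 drawn at 0.002 and a dashed line at 1 FPKM. GAPDH, VIM, KRT8 and CPS1 stood above 10 FPKM in every library, and HNF4A, AFP and CDH1 stood under 1 FPKM in every library.

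Among nuclear genes, the most abundant mRNAs were those of translation, iron storage, glycolysis and the cytoskeleton, joined by a few that most cell types make sparingly. Of 16632 protein-coding genes of the nuclear genome, 10733 reached a mean of 1 FPKM, or 64.5%, 4374 reached 10 FPKM, or 26.3%, and 249 reached 100 FPKM, or 1.5%. EEF1A1, the elongation factor that brings tRNA to the ribosome, was the most abundant of them at 1726, 1736 and 1737 FPKM. Its lowest library was above the highest of GAPDH, the next in order. GAPDH and FTL, the ferritin light chain at 1383, 1439 and 1449 FPKM, overlapped between libraries. Both stood clear of ENO1, the glycolytic enolase, whose libraries lay between 941 and 1003 FPKM. From PPIA, the cyclophilin A gene, down to ACTG1, cytoplasmic gamma actin, neighbours in the order overlapped and cannot be ranked against each other.

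Of the 30 highest, 11 were cytosolic ribosomal protein genes, led by RPL13A at 886.5 ± 32.4 FPKM. The 83 cytosolic ribosomal protein genes listed made up 6.33% ± 0.0420 of the summed FPKM. Glycolysis was represented by GAPDH, ENO1, PGK1 at 636 ± 21.6 FPKM and LDHA, the lactate dehydrogenase A chain, at 492 ± 32.6 FPKM. PKM, the pyruvate kinase of most tissues outside the liver, followed at 286 ± 9.30 FPKM. Iron storage was represented by FTL and by FTH1, the heavy chain, at 837 ± 88.8 FPKM, for which 62.4% of exon bases are also covered by another gene and the split of reads is uncertain. Among cytoskeletal genes were ACTG1, ACTB at 572 ± 5.78 FPKM and the actin-sequestering thymosins TMSB4X at 572, 548 and 583 FPKM and TMSB10 at 563.5, 522 and 513 FPKM. S100A4, a calcium-binding protein linked with motile cells, was at 635, 659 and 699 FPKM.

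A pair of genes among the 30 codes for secreted or surface enzymes of narrow known distribution, and they lie near each other on chromosome 2. PRSS56, a trypsin-like serine protease gene known from the eye, was at 867.5, 724 and 741 FPKM, with replicate 1 above the other 2. ALPI, the intestinal form of alkaline phosphatase, was at 500.1, 472 and 527 FPKM. ALPP, the placental form, was at 320, 271 and 281.5 FPKM in the same stretch, with 20.6% of its exon bases also covered by another gene. ALPPL2, the germ cell form, had a mean of 4.76 ± 0.340 FPKM. ALPP and ALPPL2 are near-identical copies, so how their reads were split between them is uncertain, and ALPI is a more distant relative. They lie on the plus strand of GRCh38, ALPP at chr2:232378534-232382889, ALPI at chr2:232456123-232460032 and PRSS56 at chr2:232520463-232525716. Genes around them were not uniformly high: ECEL1, between ALPI and PRSS56, was at 0.215 ± 0.115 FPKM, and CHRND, a muscle acetylcholine receptor subunit just after PRSS56, was at 7.94 ± 0.362 FPKM. ALPP, ALPPL2, ECEL1 and CHRND were singled out after their values were seen.

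**Figure D2:**
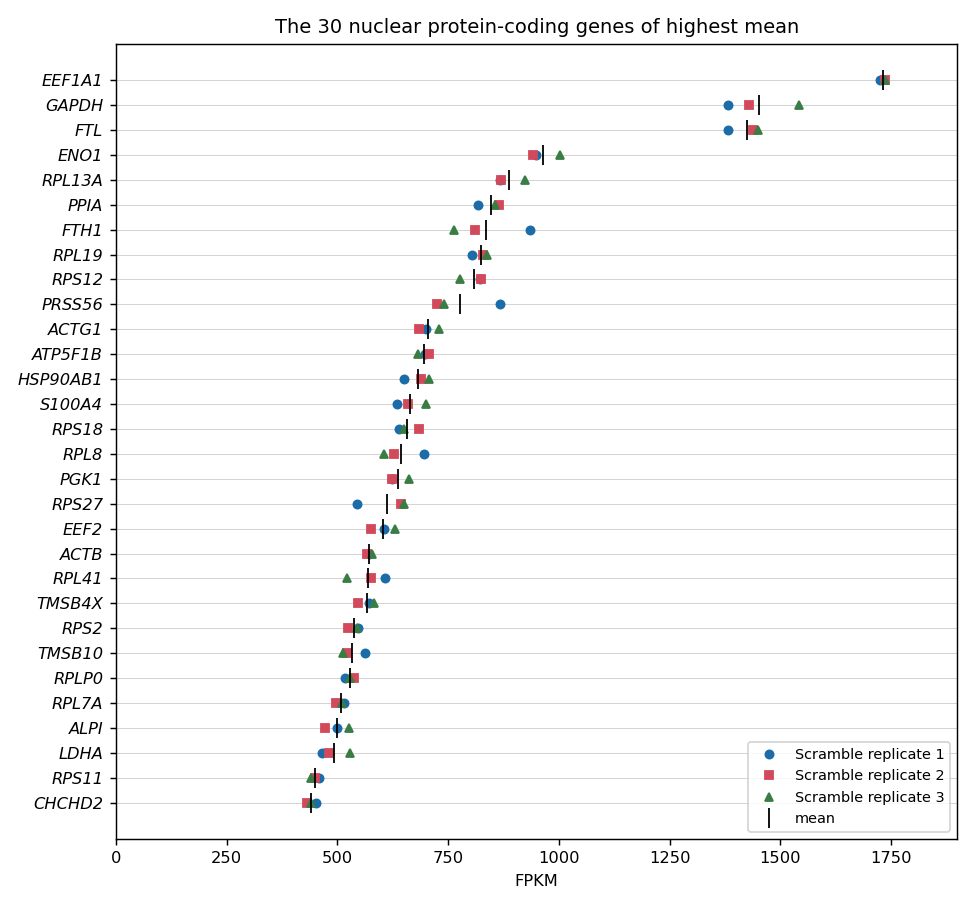
The 30 protein-coding genes of the nuclear genome with the highest mean FPKM, with each Scramble library as a symbol, the mean as a vertical mark and FPKM on a linear axis from 0. EEF1A1, GAPDH and FTL stood apart above 1000 FPKM in every library, and from PPIA down the libraries of neighbouring genes largely overlapped.

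Transcripts of the mitochondrial genome took 26.6, 29.5 and 30.1% of the summed FPKM, lowest in replicate 1. Since they are short, the same genes held 8.94% ± 0.762 of the fragments. The 13 protein-coding genes ran from MT-CO1, a cytochrome oxidase subunit at 11623, 13319 and 14046 FPKM, down to MT-ATP8 at 194 ± 29.9 FPKM, and 12 of them were above 1000 FPKM. Among transcripts without a protein, processed pseudogenes took 3.42% ± 0.0834 of the summed FPKM. RPS28P7, a pseudogene of the ribosomal protein gene RPS28, was listed at 1499 ± 92.6 FPKM against 61.8 ± 3.51 FPKM for RPS28, and reads of such copies cannot be assigned with certainty. RN7SL2, an RNA of the signal recognition particle, was at 939, 271 and 298 FPKM. Among the non-coding genes named here it was the clearest case of 1 library standing apart. Of long non-coding RNAs, MALAT1 was at 157, 161 and 112 FPKM and LINC02582 at 156 ± 3.11 FPKM. These non-coding genes were named after their values were seen.

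The plasma protein program of hepatocytes was nearly absent. Of 34 plasma protein genes, 26 were analysed, and 2 of them reached 1 FPKM, where 64.5% of nuclear protein-coding genes did, the share against which the counts of the other lists can be read. Their median was 0.0277 FPKM, against 3.36 FPKM for nuclear protein-coding genes. The 2 were C3, the central complement protein, at 6.57, 6.25 and 6.85 FPKM, and VTN, the adhesive plasma protein vitronectin, at 3.68, 3.65 and 3.01 FPKM. Neither is made by hepatocytes alone. The other 24 had means under 1 FPKM. SERPINA1, the antitrypsin gene, HP, haptoglobin, and APOA1, the main protein of high density lipoprotein, were each represented by 1 fragment over the 3 libraries. TF, APOH, FGB, HPX, A1BG and ITIH3 were listed at 0 in all 3 libraries, and for FGB, a fibrinogen chain, a count of 0 allows a level of up to 0.0230 FPKM. The whole list summed to 11.9 ± 0.188 FPKM over the libraries. ALB, TTR, APOB, APOC3 and 4 other members were not analysed here. As bulk RNA was measured, fewer cells of a type and less RNA per cell cannot be told apart. The lists here and below were chosen with earlier results of these data known. Their shares beside the background are descriptions and not tests.

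Markers of fetal liver and liver cancer gave 3 of 7 at 1 FPKM or more, or 42.9% beside 40.8% of all listed genes and 64.5% of nuclear protein-coding ones. H19, an imprinted long non-coding RNA of fetal tissues, was at 168, 131.5 and 125 FPKM, with replicate 1 the highest. SOX4, a transcription factor of progenitor cells and of many tumours, was at 12.2 ± 0.848 FPKM, and SPINK1, a trypsin inhibitor, was at 2.53 ± 0.381 FPKM. AKR1B10, an aldo-keto reductase, was at 0.340 ± 0.147 FPKM, and DLK1, a protein of hepatoblasts, was represented by 2 fragments.

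Hepatocyte enzymes and transporters gave 6 of 28 at 1 FPKM or more, or 21.4% beside 64.5% of nuclear protein-coding genes. Their median was 0.0518 FPKM, and the 3 highest were far above the rest. CPS1, the mitochondrial enzyme that makes carbamoyl phosphate for the urea cycle, was at 292, 302 and 272 FPKM and rested on 149454 fragments. ASS1, the next urea cycle enzyme but one, was at 106, 111 and 111 FPKM. ABCC2, a canalicular export pump also found in kidney and gut, was at 29.1, 29.6 and 26.4 FPKM. The urea cycle was not present as a whole: OTC, between CPS1 and ASS1, was listed at 0, ASL was at 3.34 ± 0.0388 FPKM and ARG1 at 0.242 ± 0.0725 FPKM. Drug metabolism and bile acid genes were low, with CYP3A4 at 0.133 ± 0.0865, CYP2E1 at 0.0392 ± 0.0147, ABCB11 at 0.0643 ± 0.0303 and BAAT at 0.0357 ± 0.0288 FPKM. G6PC, the last step of glucose release, and HAMP, the iron hormone hepcidin, were listed at 0. SLCO1B3 had a mean of 1.85 ± 0.388 FPKM, with 54.5% of its exon bases also covered by another gene.

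Where a reaction has a liver form and another form, the other form prevailed. Of 14 such activities, both forms were analysed for 11, and the liver form was under 1 FPKM in 8 of them and the higher of the forms in 2. PKLR, the liver pyruvate kinase, was at 0.00698 ± 0.0121 FPKM, against 286 FPKM for PKM. MAT1A, which makes S-adenosylmethionine in liver, was at 0.0105 ± 0.0183 FPKM, against 80.1 ± 2.63 FPKM for MAT2A. GYS2, the liver glycogen synthase, was at 0.0336 ± 0.0319 FPKM, against 22.4 ± 1.05 FPKM for GYS1, although 87.5% of the exon bases of GYS2 are also covered by another gene. The same order held for arginase, with ARG2 at 3.49 ± 0.509 FPKM above ARG1, although 37.4% of the exon bases of ARG2 are also covered by another gene. The 2 exceptions were CPS1, far above CAD at 19.5 ± 0.981 FPKM, and PYGL, the liver glycogen phosphorylase, at 46.4 ± 1.23 FPKM above PYGB at 22.5 ± 1.25 FPKM. In none of these pairs named did the libraries of the 2 forms overlap. SLC2A1, the glucose transporter of most tumour lines, was at 57.4, 50.8 and 63.1 FPKM. ALDOA was listed under 2 identifiers whose exons overlap, so its level is uncertain.

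Liver-enriched transcription factors were divided. Of 22 analysed, 11 reached 1 FPKM, or 50% beside 64.5% of nuclear protein-coding genes. The list's median of 1.05 FPKM also lay below that of nuclear protein-coding genes. CEBPB, a factor of acute phase and stress responses, was at 41.6, 37.1 and 37.2 FPKM. CEBPA, which promotes hepatocyte and fat cell differentiation, was at 17.9, 13.3 and 13.5 FPKM, with 43.4% of its exon bases also covered by another gene. Both were highest in replicate 1. TBX3, ONECUT2 and ESRP2, a splicing regulator, were at 11.9 ± 0.227, 11.9 ± 0.477 and 11.6 ± 0.962 FPKM. FOXA1, a pioneer factor of endodermal organs, was at 5.31 ± 0.521 FPKM, HHEX at 4.68 ± 0.355 FPKM and GATA6 at 3.88 ± 0.272 FPKM. Those under 1 FPKM included HNF4A along with FOXA3 at 0.0458 ± 0.0412 FPKM and the bile acid and drug receptors NR1H4 at 0.00606, NR1I2 at 0.00779 and NR1I3 at 0.327 FPKM. GATA4 was represented by 2 fragments.

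**Figure D3:**
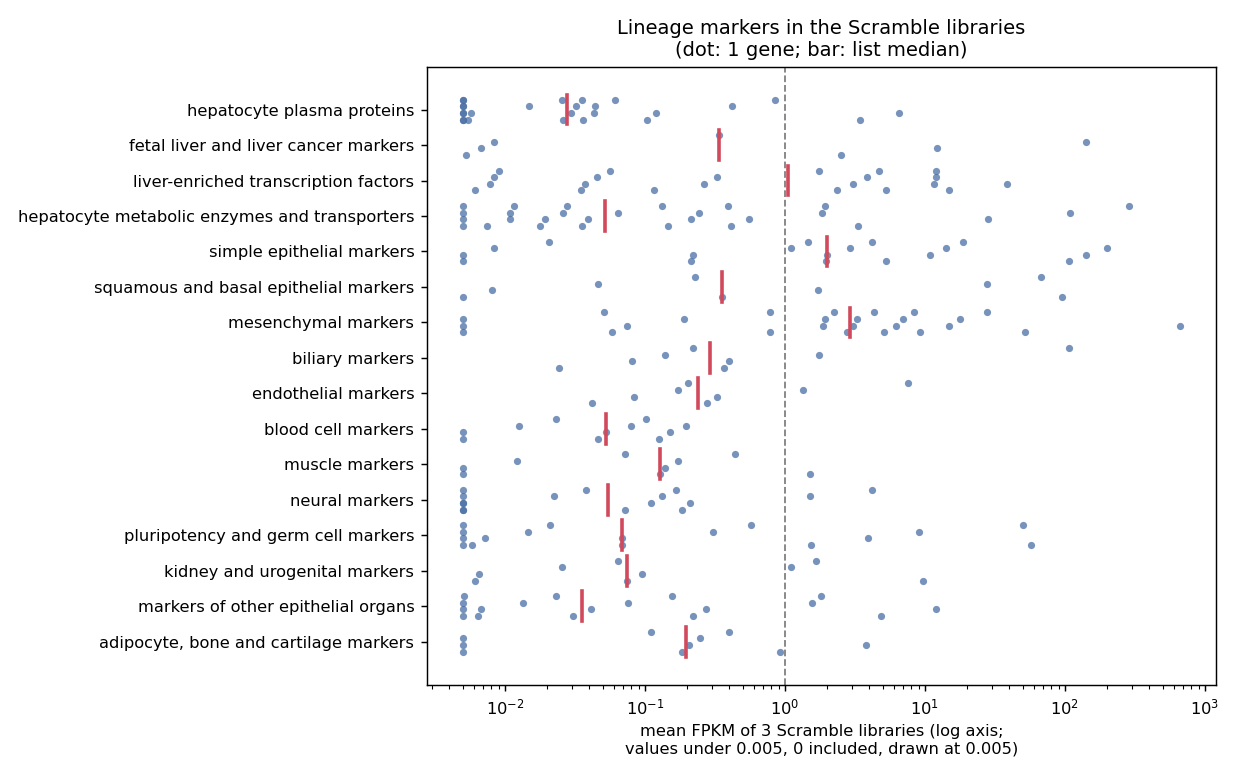
Mean FPKM of each lineage marker analysed in the 3 Scramble libraries on a log axis, with 1 dot per gene, a bar at the list median, a dashed line at 1 FPKM and values under 0.005 drawn at 0.005. The simple epithelial and mesenchymal lists had medians of 1.99 and 2.93 FPKM, and the hepatocyte plasma protein list had a median of 0.0277 FPKM.

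Simple epithelial markers were uneven, with keratins high and the main epithelial adhesion gene close to 0. Of 19 analysed, 13 reached 1 FPKM, or 68.4%, a share near the 64.5% of nuclear protein-coding genes. KRT8 and KRT18, the keratin pair of simple epithelia, were at 199.5 ± 4.90 and 140.5 ± 8.62 FPKM, and KRT7, a keratin of ducts and glands, was at 107 ± 2.17 FPKM. Each was steady, with KRT8 at 199, 195 and 205 FPKM. PRSS8, a membrane protease of epithelia, was at 18.6 ± 0.753 FPKM, CLDN7, a tight junction protein, at 14.1 ± 1.67 FPKM and ELF3, an epithelial ETS factor, at 10.8 ± 0.886 FPKM. CDH1, which codes for E-cadherin, was represented by 6 fragments in all, 3, 2 and 1 in replicates 1, 2 and 3. The epithelial regulators GRHL2 and RAB25 were listed at 0, and ESRP1 had 2 fragments. KRT19, a keratin of bile ducts, was at 0.219 ± 0.0702 FPKM.

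Squamous and basal markers gave 4 of 9 at 1 FPKM or more, or 44.4% beside 64.5% of nuclear protein-coding genes. SFN, the epithelial 14-3-3 sigma, was at 95.9 ± 2.38 FPKM, KRT17 at 67.2 ± 3.46 FPKM and TRIM29 at 27.7 ± 1.22 FPKM. TP63, the master regulator of squamous epithelium, was represented by 3 fragments, and KRT14 and KRT6A were at 0.0463 FPKM and listed at 0.

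Mesenchymal markers gave 17 of 26 at 1 FPKM or more, a share of 65.4% beside the 64.5% of all nuclear protein-coding genes. After S100A4 and VIM came COL3A1 at 27.5 ± 1.43, COL5A1 at 17.8 ± 0.697 and COL1A1 at 14.9 ± 0.875 FPKM, all chains of fibrillar collagens. CDH2, which codes for N-cadherin, was at 9.33, 8.98 and 9.33 FPKM, well above CDH1 in every library. Of the transcription factors of epithelial-mesenchymal transition in the list, 5 were above 1 FPKM, SNAI2 at 8.35 ± 0.225, TWIST2 at 5.14 ± 0.393, TWIST1 at 4.32 ± 0.448, SNAI1 at 3.25 ± 0.353 and ZEB1 at 2.25 ± 0.0379 FPKM, while ZEB2 was at 0.779 ± 0.0272 FPKM. The fibroblast genes of the list were divided. LUM was at 6.97 ± 0.493, COL6A1 at 6.25 ± 0.562, COL6A2 at 3.06 ± 0.395, PDGFRB at 1.95 ± 0.0643 and TAGLN at 1.87 ± 0.231 FPKM. COL1A2, the partner chain of COL1A1 in type I collagen, was listed at 0, which allows a level of up to 0.00559 FPKM. SPARC was at 0.189 ± 0.0292, THY1 at 0.0739 ± 0.0192 and DCN at 0.0584 ± 0.0360 FPKM, and PDGFRA had 1 fragment.

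Markers of other lineages were mostly under 1 FPKM, a limit that 64.5% of nuclear protein-coding genes reached. None of 11 blood cell markers reached it, and their summed level was 0.470 to 1.15 FPKM, with PTPRC, the leukocyte antigen CD45, listed at 0. Of 9 muscle markers 1 did, the cardiac actin gene ACTC1 at 1.51 ± 0.109 FPKM, and of 16 neural markers 2 did, SNAP25, a synaptic fusion protein, at 4.21 ± 0.315 FPKM and NES, nestin, at 1.51 ± 0.352 FPKM. Of 8 endothelial markers 2 did, EGFL7 at 7.55 ± 0.754 and ESAM at 1.35 ± 0.170 FPKM, with PECAM1, VWF and CDH5 under 0.4 FPKM. The biliary list gave 2 of 8, with KRT7 the higher and SOX9 at 0.396 ± 0.0109 FPKM and CFTR at 0.0243 ± 0.00276 FPKM. Of 10 adipocyte, bone and cartilage markers PPARG alone passed, at 3.81 ± 0.662 FPKM.

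A few genes of distant lineages stood out above low lists. In the pluripotency and germ cell list 5 of 17 reached 1 FPKM, or 29.4% beside 64.5% of nuclear protein-coding genes. They were led by the cancer-testis antigens MAGEA3 at 57.3 ± 2.75 and MAGEA6 at 50.2 ± 0.369 FPKM, near-identical copies whose reads may be shared. POU5F1, which codes for OCT4 and has known pseudogene copies, was at 9.01 ± 0.244 FPKM, whereas SOX2 and LIN28A were listed at 0. The kidney and urogenital list gave 3 of 9, or 33.3%. In it SIX2, a factor of nephron progenitors, was at 10.8, 9.98 and 8.34 FPKM, with PAX8 at 1.11 ± 0.254 FPKM and PAX2 at 0.00647 ± 0.00562 FPKM. Markers of other epithelial organs gave 4 of 18, or 22.2%. Among them NKX2-1, a factor of lung and thyroid, was at 4.87 ± 0.0673 FPKM, while SFTPB and SFTPC, surfactant genes among its known targets in lung, were at 0.0305 and 0.0756 FPKM. MITF, which drives pigment cells and is also found elsewhere, was at 11.3, 12.9 and 11.8 FPKM, and the pigment cell genes PMEL and MLANA were at 1.81 ± 0.103 and 0.156 ± 0.0375 FPKM.

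Of 477 transcription factor genes in 8 families, 319 reached 1 FPKM, or 66.9% beside 64.5% of nuclear protein-coding genes, and 114 reached 10 FPKM, where 26.3% of nuclear protein-coding genes did. Both shares were near the background. The highest were general factors of growing cells. YBX1, a nucleic acid binding protein of transcription and translation, was at 388, 354 and 352 FPKM, and HMGA1, an architectural chromatin protein, at 268.5, 248 and 254 FPKM. ID1 and ID3, which block bHLH factors, were at 158 ± 5.64 and 102 ± 1.20 FPKM. MYC, the growth-promoting oncoprotein, was at 106, 114 and 119 FPKM, and its relatives MYCL and MYCN were at 0.700 and 0.400 FPKM. HIF1A, the oxygen-regulated factor, was at 90.9 ± 3.07 FPKM and EPAS1 at 13.9 FPKM.

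Within the AP-1 and ATF family 36 of 44 genes reached 1 FPKM, or 81.8% beside 64.5% of nuclear protein-coding genes. JUND was at 113 ± 4.74 FPKM, JUNB at 40.4 ± 5.01 FPKM and FOSL2 at 38.3 ± 1.55 FPKM, against 2.30 FPKM for JUN and 1.54 FPKM for FOS. ATF4 and XBP1, the factors of amino acid and endoplasmic reticulum stress, were at 67.8 ± 2.54 and 47.5 ± 1.69 FPKM. TEAD1, the DNA-binding partner of YAP, was at 40.5 ± 1.94 FPKM, and TEAD2, TEAD3 and TEAD4 were between 8.69 and 14.1 FPKM. The nuclear receptors gave 25 of 47, or 53.2%, below that background. They were led by the orphan receptor NR2F6 at 43.5 ± 2.97 FPKM, and the estrogen and progesterone receptor genes ESR1 and PGR were each under 0.05 FPKM. KLF5, a factor of proliferating epithelia, was at 39.6 ± 2.26 FPKM, and TFAP2A, an ectodermal and epithelial factor, at 28.7 ± 0.809 FPKM. PITX1, a homeobox gene of the hindlimb and oral ectoderm, led its list at 16.0 ± 0.616 FPKM.

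HOX genes, which carry a cell's position along the body axis, were present in all 4 clusters, with higher levels at the high numbers. Of 36 analysed, 26 reached 1 FPKM, or 72.2% beside 64.5% of nuclear protein-coding genes. In cluster B all 9 genes did, led by HOXB7 at 19.6, 19.5 and 19.7 FPKM, in cluster C 7 of 9, in cluster A 6 of 11 and in cluster D 4 of 7. Of the paralog groups, numbers 1 to 4 gave 4 of 10 with a median of 0.192 FPKM, 5 to 8 gave 9 of 11 with a median of 2.17 FPKM and 9 to 13 gave 13 of 15 with a median of 6.60 FPKM. Genes of the last part included HOXC13 at 14.9 ± 0.982, HOXA10 at 13.1 ± 0.767, HOXA11 at 13.1 ± 1.11 and HOXA13 at 11.7 ± 0.700 FPKM. Exceptions were HOXC12 and HOXD12, at 0.0430 and 0.0164 FPKM, and on the other side HOXB2 and HOXB3, at 6.93 ± 0.380 and 6.98 ± 0.792 FPKM. Antisense genes overlap HOXA10, HOXA11 and HOXB6, which share 26.3, 31.1 and 32.9% of their exon bases with another gene, and the kit did not mark strand.

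**Figure D4:**
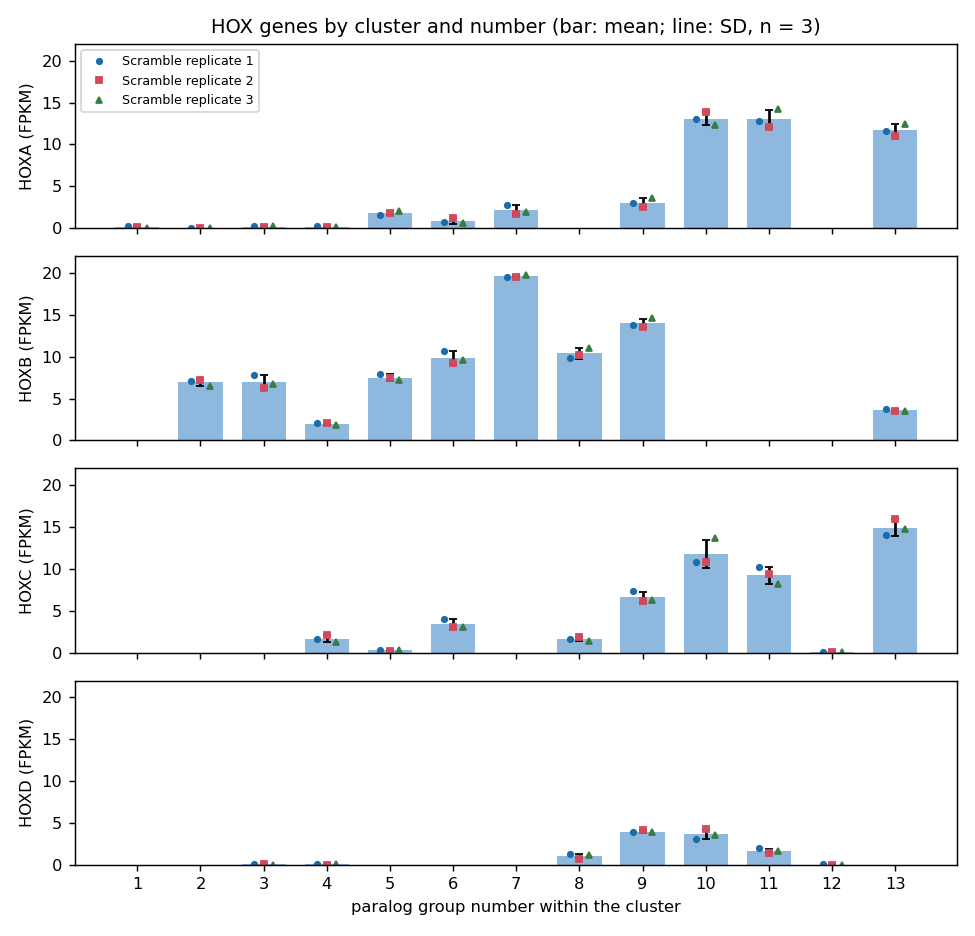
HOX genes analysed in the 3 Scramble libraries, with 1 panel for each cluster, the number of the gene within the cluster on the x axis and FPKM on a linear y axis from 0, where bars are means, lines are SD (n = 3) and symbols are libraries. Cluster B stood above 1 FPKM at all 9 positions, and HOXA10, HOXA11 and HOXA13 stood above the lower-numbered genes of cluster A.

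Of 216 surface genes analysed, 142 reached 1 FPKM, or 65.7%, a share near the 64.5% of nuclear protein-coding genes. SLC7A5, the large neutral amino acid transporter, was at 312, 285 and 304.5 FPKM, and SLC3A2, its heavy chain, at 78.4 ± 3.25 FPKM. BSG, the partner of lactate transporters, was at 193 ± 10.1 FPKM and TFRC, the transferrin receptor, at 170 ± 6.40 FPKM. Class I antigen presentation genes were present, with HLA-C at 161 ± 10.5, B2M at 151 ± 8.76 and HLA-B at 44.5 FPKM. The class II genes HLA-DRA and HLA-DRB1 were at 0.0632 FPKM and listed at 0. CD70, a ligand of the tumour necrosis factor family best known from activated lymphocytes, was at 141, 129 and 136 FPKM. CD55, a brake on complement, was at 124 ± 7.22 FPKM.

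Among receptor tyrosine kinases 21 of 42 reached 1 FPKM, or 50% beside 64.5% of nuclear protein-coding genes. MET, the hepatocyte growth factor receptor, was at 42.9 ± 0.923 FPKM and EGFR at 41.5 ± 0.687 FPKM, and their libraries overlapped. DDR1, a collagen receptor, followed at 32.0 ± 2.52, EPHA2 at 28.0 ± 1.24 and AXL at 23.9 ± 1.56 FPKM. FGFR4, a fibroblast growth factor receptor, was at 5.37 FPKM and ERBB2 at 7.54 ± 0.660 FPKM. Their ligands were uneven: HGF, which binds MET, was at 0.00198 FPKM, and of the EGFR ligands EREG was at 2.75, HBEGF at 1.65, TGFA at 1.21, AREG at 0.331 and EGF at 0.0374 FPKM.

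Of 25 integrin genes 11 reached 1 FPKM, or 44% beside 64.5% of nuclear protein-coding genes. ITGB1, the shared beta chain, was at 103 ± 4.21 FPKM, and its alpha partners were led by ITGA5 at 41.6 ± 2.05 and ITGA3 at 21.7 ± 1.44 FPKM. Leukocyte integrins ITGAM and ITGAL were listed at 0 and at 0.00601 FPKM. Junction genes gave 23 of 35, or 65.7%, near the same background. JUP, or plakoglobin, was at 172 ± 6.39 FPKM, and the desmosome genes DSP, PKP3 and DSG2 were at 34.5 ± 1.65, 32.8 ± 2.45 and 31.8 ± 0.137 FPKM. Tight junctions were uneven, with CLDN7 and TJP1 at 14.1 and 8.62 FPKM and OCLN, occludin, at 0.214 ± 0.0448 FPKM.

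Secreted products were analysed through 326 genes, of which 162 reached 1 FPKM, or 49.7% beside 64.5% of nuclear protein-coding genes. The protease and inhibitor list also holds other secreted proteins. Of these, PSAP, the saposin precursor, was at 363 ± 12.5, LGALS3BP at 186 ± 8.63 and LGALS1, or galectin 1, at 175 ± 1.88 FPKM. High inhibitors of the list included TIMP1, a metalloproteinase inhibitor, at 167 ± 2.98 and SLPI, a protease inhibitor of mucosa, at 129 ± 10.2 FPKM. MMP2 and MMP9, gelatinases that TIMP1 blocks, were at 0.00448 and 0.138 FPKM.

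Growth factor genes gave 50 of 109 at 1 FPKM or more, or 45.9% beside 64.5% of nuclear protein-coding genes. FSTL3, an activin antagonist, was at 181, 164 and 164.5 FPKM, and WISP2, a CCN family protein, at 126, 110.1 and 113 FPKM, both highest in replicate 1. GDF15, a stress-induced hormone, was at 77.7 ± 4.67 FPKM, VEGFA at 31.4 ± 1.29, TGFB1 at 28.7 ± 1.70, BMP6 at 25.7 ± 0.817 and BMP2 at 20.9 ± 1.11 FPKM. Among Wnt ligands WNT7B, WNT5A and WNT6 were at 12.8, 12.5 and 11.6 FPKM.

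Chemokine and cytokine genes gave 14 of 49 at 1 FPKM or more, or 28.6% beside 64.5% of nuclear protein-coding genes. TNFSF9, a costimulatory ligand for T cells, was at 92.0, 83.3 and 80.1 FPKM and CCL5, a chemokine for T cells, at 54.3, 52.9 and 55.2 FPKM. CXCL16 and IL18 followed at 19.9 ± 0.495 and 13.4 ± 0.451 FPKM. The inflammatory genes IL6, CXCL2, CXCL8 and IL1B were at 0.400, 0.394, 0.128 and 0.0251 FPKM, so CXCL2 in the control cells was below the limit of 1 FPKM.

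Matrix genes gave 47 of 92 at 1 FPKM or more, or 51.1% beside 64.5% of nuclear protein-coding genes. FBLN1, fibulin 1, was at 109 ± 5.09 FPKM, and basement membrane chains were well represented, with LAMA5 at 58.7 ± 6.64, LAMC1 at 52.9 ± 0.958, LAMB3 at 41.2 ± 1.73, LAMB2 at 38.4 ± 3.55 and AGRN at 43.7 ± 3.94 FPKM. NID1, which links laminin to collagen IV, was listed at 0. FN1, fibronectin, was at 2.61, 2.71 and 3.05 FPKM.

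Every proliferation gene analysed was present. All 34 reached 1 FPKM, where 64.5% of nuclear protein-coding genes did, and 32 reached 10 FPKM, where 26.3% did. Their median was 28.4 FPKM. As members were chosen with earlier results of these data known, these shares are a description and not a test. RRM1, a ribonucleotide reductase subunit, was at 284, 313 and 313 FPKM, PCNA, the replication clamp, at 184 ± 2.71 FPKM and TOP2A at 69.9 ± 2.52 FPKM. MKI67, the proliferation antigen, was at 24.0 and CCNB1, the mitotic cyclin, at 51.4 ± 1.60 FPKM. CCNE1 and CCNE2, the cyclins of S phase entry, were the lowest, at 2.56 and 5.91 FPKM.

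Cell cycle inhibitors and DNA damage response genes were present alongside them, 26 of 26 at 1 FPKM or more beside 64.5% of nuclear protein-coding genes. CDKN1A, which codes for p21, was at 218, 205 and 199 FPKM, and it and GDF15 were the highest of the list. CDKN2A, an inhibitor locus lost in many tumour lines, was at 28.6 ± 1.13 FPKM, and RB1, the retinoblastoma protein gene, at 14.8 ± 0.699 FPKM.

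Interferon-stimulated genes gave 17 of 22 at 1 FPKM or more, or 77.3% beside 64.5% of nuclear protein-coding genes. ISG15, a ubiquitin-like protein, was at 313, 287 and 295 FPKM, BST2, or tetherin, at 194 ± 8.11 FPKM and IFI6 at 110.2 ± 5.03 FPKM. The list was uneven, since MX1, MX2 and XAF1 were at 0.227, 0.254 and 0.133 FPKM. IFNB1 and IFNL1, which code for interferons, were at 0.370 and 0.338 FPKM. The series has no untransfected library against which these levels could be read.

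Stress genes gave 25 of 26 at 1 FPKM or more, beside 64.5% of nuclear protein-coding genes. They were led by the endoplasmic reticulum chaperones HSPA5 at 357 ± 12.1 and HSP90B1 at 278 ± 11.9 FPKM. The hypoxia-inducible genes NDRG1, CA9 and BNIP3 were at 187 ± 12.9, 87.2 ± 9.06 and 70.9 ± 3.82 FPKM. ASNS, asparagine synthetase, was the 1 member under the limit, at 0.675 FPKM.

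Of 14 histone lysine demethylase genes 13 reached 1 FPKM, where 64.5% of nuclear protein-coding genes did. KDM4C, the gene targeted in the other libraries of the series, was at 4.88, 4.63 and 4.57 FPKM in the Scramble libraries, from 2329 fragments. Its relatives KDM4B and KDM4A were at 6.28 ± 0.341 and 4.52 ± 0.391 FPKM, the latter with 48.5% of exon bases also covered by another gene, and KDM4D was at 0.423 FPKM. The libraries of KDM4C and KDM4A overlapped, while each library of KDM4B was above all 3 of KDM4C. KDM1A, a flavin-dependent demethylase, was the highest at 88.8, 93.3 and 94.0 FPKM.

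The promoter windows of GAPDH and AFP differed in CG content, while those of VIM and HNF4A held 8 each. Over all matched genes, the median CG content was lowest in the class of lowest level. Promoter windows were matched for 13309 of 16632 nuclear protein-coding genes, 212 of them at 100 FPKM or more. The median window held 8 CG dinucleotides for genes under 0.1 FPKM, 14 between 0.1 and 1 FPKM, 21 between 1 and 10 FPKM, 22 between 10 and 100 FPKM and 20 from 100 FPKM up. The quartiles of the lowest class, 3 and 19, overlapped those of the highest, 15 and 28, so single genes of any level can hold few or many. VIM, at a mean of 51.6 FPKM and with 8 in its window, lay below its class's lower quartile of 16. Windows before its other start sites were not examined. TATAAA did not follow the same order, being in 13.2% of windows of genes under 0.1 FPKM, in 4.61% between 1 and 10 FPKM, in 5.20% between 10 and 100 FPKM and in 10.8% from 100 FPKM up. Of the 30 highest genes, 25 had a window, and 6 of these, or 24%, held TATAAA. The inverted repeat was in 16 of the 13309 windows. Of these genes 8 were under 1 FPKM, HNF4A and AFP among them, beside 32.9% of all matched genes, and the highest were PNISR at 20.6 FPKM and RNF14 at 8.72 FPKM, which were named after their values were seen.

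**Figure D5:**
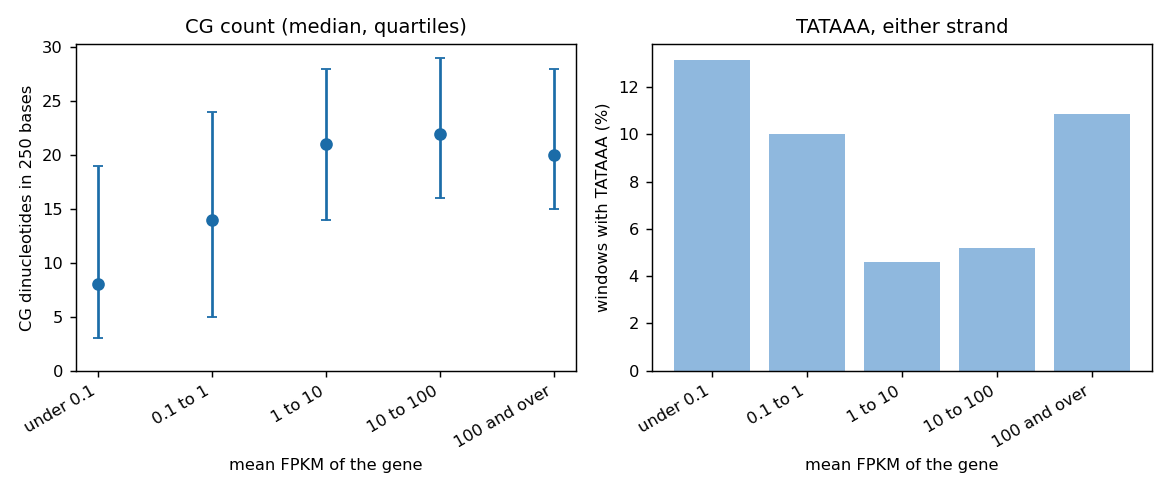
CG dinucleotides (left, median and quartiles) and the share of windows with TATAAA on either strand (right, bars from 0) in the 250 bases before the start of protein-coding genes, by mean FPKM class in the Scramble libraries. The median CG count was 8 in the class under 0.1 FPKM and 20 to 22 in the 3 classes from 1 FPKM up, and of the 5 classes the lowest had the largest share with TATAAA.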

How the data were processed

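RNA of 9 libraries labelled Huh7 was sequenced as paired reads after non-directional library preparation, and the 3 Scramble libraries were used here. For each library the authors deposited a list of 32906 genes with 1 FPKM value each. The submitters' processing notes name HISAT2 2.1.0, StringTie 1.3.3b, featureCounts and build GRCh38, and the annotation release is not given in the sources used here. Identifiers of 32847 genes were found in GENCODE 29, whose exon lengths turned FPKM back into fragments. A value was called whole within 0.05 of a fragment, and this step was tested on simulated data. FPKM rises for every gene when a few abundant transcripts take fewer fragments, and reads of overlapping genes or near-identical copies cannot be assigned with certainty without strand. Means, SD and counts at 1 FPKM were computed with Python 3.11.15, numpy 2.4.6 and pandas 2.3.3.

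Text names the 30 nuclear protein-coding genes of highest mean, the 13 mitochondrial ones as a group, and members of 37 lists, in each the highest and the defining markers under 1 FPKM. Genes were also named beyond this rule where the text says that their values had been seen, and low members of the other lists were named for contrast. The members and lists were chosen with earlier results of these data known. Of 1442 genes in the lists, 1277 were analysed. Alternatives were other limits, every library at 1 FPKM, a TPM scale, the median, leaving out each library, another pseudocount and no filter. The deposited values of the 6 knockdown libraries were not used. Some genes of the lists are not reported here.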

Additional observations from a re-analysis of the deposited data

How the results depend on the processing

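Of 305 recomputed values, 281 stayed within 1.5 times the count or within 1 SD of the level given above, and none changed direction because no direction was tested. Every value recomputed without 1 of the 3 libraries was among these. For the marker levels this was fixed in advance, as leaving out 1 of 3 libraries cannot move a mean by 1 SD. The same holds for the median of 3 libraries, so only the counts could have moved. With a limit of 2 FPKM the number of members reaching it became 1 for the biliary, endothelial, neural and kidney lists, 0 for muscle, 2 for other epithelial organs, 30 for homeobox genes and 9 for cytokines. With a limit of 0.5 FPKM the adipocyte, bone and cartilage list gave 2. On a TPM scale, where every library has the same sum, all levels are higher by construction: GAPDH stood at 4760, VIM at 169, HNF4A at 0.381 and AFP at 0.0227, and the lists at 1 or more gave 4 for hepatocyte plasma proteins, 4 for biliary, 2 for muscle, 3 for adipocyte, bone and cartilage and 28 for cytokines. The scale multiplies every gene of a library by the same factor, so the order of genes within a library could not change. That AFP stayed low is therefore no separate result, and the count for hepatocyte plasma proteins moved from 2 to 4. The correlations between libraries 1 and 2, 1 and 3, and 2 and 3 were 0.960, 0.963 and 0.967 with a pseudocount of 0.1, and 0.986, 0.987 and 0.989 with no filter on low values. A gene with 1 kb of exon rests on fewer than 3 fragments in a library below 0.175 to 0.199 FPKM, which limits what can be said of the low genes. No paired analysis was possible because 1 group was described and no groups were compared.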
